A study of Mus musculus with 2 samples.

Results

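The genes described here encode the PSD-95 family of membrane-associated guanylate kinases (Dlg1 to Dlg4) and the guanylate kinase-associated proteins that bind them (Dlgap1 to Dlgap4). They were chosen by gene symbol and make up 8 of the 55536 annotated genes in the tables. All 8 passed the detection threshold of a TPM of 1 in both libraries, as did 12933 of 22015 nuclear protein-coding genes. TPM is a level corrected for transcript length and for library size. The samples are 2 libraries of 1 group. Both came from the left cerebral cortex of female B6CASTF1/J mice, first-generation hybrids of the C57BL/6J and CAST/EiJ strains, at an age of 25 days, and no treatment or altered allele is named. Total RNA (300 ng) was sequenced with synthetic spike-in RNAs, whose profile in the labels is named for stranded, ribosomal RNA-reduced libraries. The labels name separate animals by number, although they cite 1 donor identifier. The libraries were taken as separate animals on that basis. If they were not, the spread is one of preparation. With 1 group there is no contrast to test, so values are given per library with mean ± SD (n = 2).

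In the postsynaptic density of excitatory synapses, the PSD-95 family proteins use PDZ domains to hold the tails of NMDA receptors, AMPA receptor auxiliary subunits, potassium channels and adhesion proteins. Their SH3 and guanylate kinase domains form the far end of the protein, and the guanylate kinase domain binds the GKAP proteins, which link to Shank and through it to Homer and the actin cytoskeleton. Dlg4 encodes PSD-95, Dlg2 PSD-93, Dlg3 SAP102 and Dlg1 SAP97. Dlgap1 to Dlgap4 encode SAPAP1 to SAPAP4, of which SAPAP1 is also called GKAP. The amino end of a Dlg protein is set by the promoter and first coding exon in use. In PSD-95 and PSD-93 a short end with cysteines can be palmitoylated and tethers the protein to the membrane. A longer end carries an L27 domain used for binding other scaffolds.

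The first coding exons are shown because transcripts were also summed by start codon, and for Dlg4 that balance changed with the quantification. Each is given 5′ to 3′ on the plus strand of mm10, from the GENCODE M21 transcripts, cut at 42 bases, with in-frame TGT and TGC codons (cysteine) in capitals. The reference is the C57BL/6J allele.
Dlg4-203, chr11:70018920-70018949: atggacTGTctcTGTatagtgacaaccaag
Dlg4-204, chr11:70017215-70017233: atgtcccagagaccaagag
Dlg4-201, chr11:70030625-70030654: atggagtatgaggagatcacattggaaagg
Dlg2-204, chr7:91091007-91091048: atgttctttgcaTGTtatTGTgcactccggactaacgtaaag
Dlg2-217, chr7:90504898-90504937: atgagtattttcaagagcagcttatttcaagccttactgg
Dlg3-202, chrX:100768072-100768113: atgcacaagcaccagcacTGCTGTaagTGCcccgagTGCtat
Dlg1-203, chr16:31664852-31664870: atgccggtccggaagcaag
Dlg1-204, chr16:31754783-31754824: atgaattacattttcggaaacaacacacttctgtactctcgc
The start of Dlg4-203 holds 2 cysteine codons, that of Dlg2-204 holds 2 and that of Dlg3-202 holds 4. The other 5 starts hold 0 within these bases. Palmitoylation was not measured, and the number of cysteine codons is no measure of it.

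Dlg4 stood far above the other members, and in TPM it exceeded its 3 paralogs together (by expected counts, which are not corrected for length, it did not). In the alignment-based tables Dlg4 (ENSMUSG00000020886.17, chr11:70016942-70047522) reached 416 TPM in replicate 1 and 428 TPM in replicate 2 (422 ± 8.28, SD, n = 2), the 99.4th percentile of the 12933 detected nuclear protein-coding genes. Dlg2 (ENSMUSG00000052572.17, chr7:90476672-92449247) reached 142 and 156 TPM (149 ± 9.78) and sat at the 96.1st percentile. Dlg1 (ENSMUSG00000022770.17, chr16:31663443-31875129) reached 82.9 and 85.1 TPM (84.0 ± 1.58), and Dlg3 (ENSMUSG00000000881.12, chrX:100767722-100818410) reached 65.9 and 63.5 TPM (64.7 ± 1.73). No library of any Dlg paralog overlapped the range of another. The genes differ widely in extent, since Dlg2 spans 1973 kb and Dlg4 30.6 kb, and all 8 lie on the plus strand. Exons of Dlg2 overlap a same-strand lincRNA gene, Gm45159 (1104 and 1089 counts), and the expected counts of both genes are whole in both libraries.

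Among the GKAP genes 2 led at similar levels. Dlgap1 (ENSMUSG00000003279.17, chr17:69969073-70821413) reached 183 and 208 TPM (196 ± 17.6, SD, n = 2). Dlgap3 (ENSMUSG00000042388.14, chr4:127169204-127237022), whose product is known for its role at corticostriatal synapses, reached 174 and 182 TPM (178 ± 5.26). Within a library Dlgap1 exceeded Dlgap3 by 0.07 on the log2 scale in replicate 1 and by 0.20 in replicate 2, a mean of 1.10-fold. The gap between their means, 17.8 TPM, was close to the SD of Dlgap1, so their order is weakly separated although the ranges did not overlap. Dlgap4 (ENSMUSG00000061689.15, chr2:156613705-156764363) reached 97.2 and 105 TPM (101 ± 5.64). Dlgap2 (ENSMUSG00000047495.15, chr8:14095865-14847680) was the lowest of the 8 at 53.5 and 60.2 TPM (56.9 ± 4.76), with Dlgap1 3.44-fold above it.

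**Figure D1:**
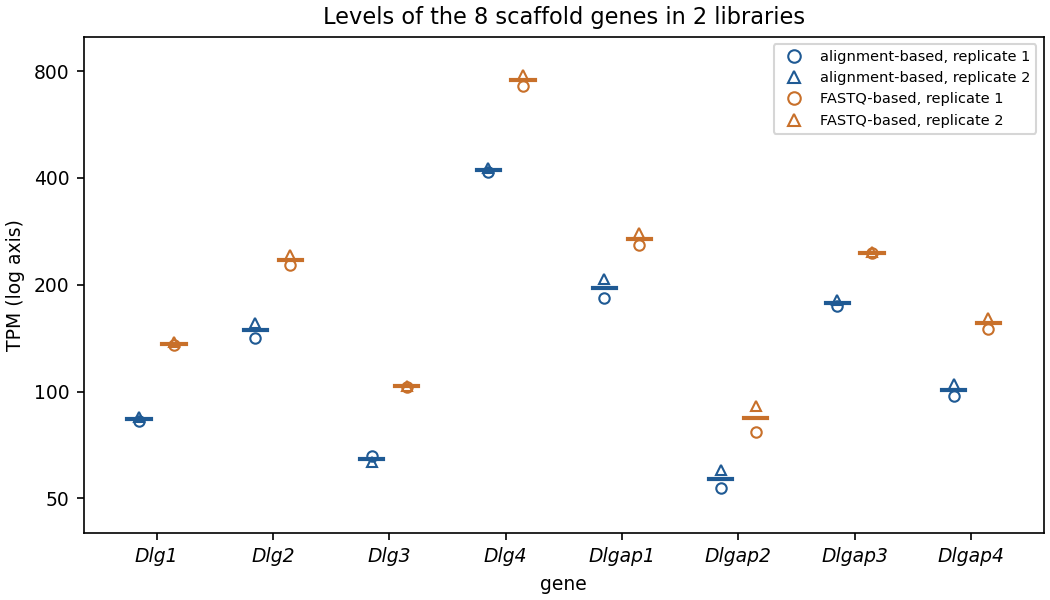
TPM of the 8 genes on a log axis. Circles are replicate 1 and triangles replicate 2, blue is the alignment-based and orange the FASTQ-based quantification, and bars are means of the 2 libraries. Dlg4 is highest in all 4 measurements, and every gene sits higher in the FASTQ-based table.

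The full order by mean TPM was Dlg4, Dlgap1, Dlgap3, Dlg2, Dlgap4, Dlg1, Dlg3 and Dlgap2. No neighbours in that order had overlapping ranges, and the FASTQ-based means gave the same order. It does depend on length: by expected counts, with no length correction, Dlg2 passed Dlgap3 and Dlg3 passed Dlg1. In the FASTQ-based table Dlg4 had 727 and 782 TPM, Dlgap1 258 and 279.6 TPM, Dlgap3 246 and 247 TPM, and Dlg2 227 and 242 TPM. The lower 4 there were Dlgap4 with 150.5 and 161 TPM, Dlg1 with 135 and 138 TPM, Dlg3 with 102.98 and 103.8 TPM, and Dlgap2 with 77.2 and 91.3 TPM.

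Taken as shares of their family, Dlg4 provided 58.9% and 58.4% of the Dlg1 to Dlg4 TPM in the 2 libraries (58.7% ± 0.31). Dlg2 provided 20.7% ± 0.84, Dlg1 11.7% ± 0.07 and Dlg3 9.0% ± 0.46. The GKAP family was more even, with Dlgap1 at 36.8% ± 1.01, Dlgap3 at 33.5% ± 1.11, Dlgap4 at 19.0% ± 0.13 and Dlgap2 at 10.7% ± 0.23. The FASTQ-based table moved Dlg4 to 61.4% ± 0.57 and Dlgap1 to 35.6% ± 0.43. The long Dlg2 transcripts weighed more when length was left uncorrected: by expected counts Dlg2 held 31.3% ± 0.47 of the family and Dlg4 45.8% ± 0.35. When only transcripts annotated as protein coding were summed, the Dlg4 share was 64.6% and the Dlgap1 share 34.9%.

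**Figure D2:**
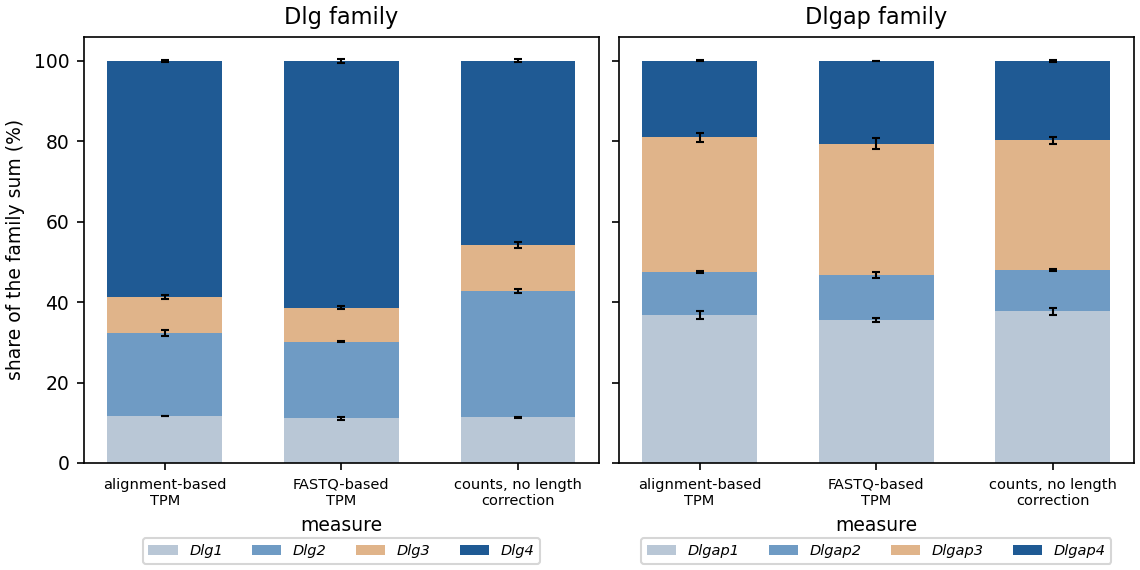
Share of each paralog in the sum of its family, in percent, for the alignment-based TPM, the FASTQ-based TPM and the expected counts without length correction. Bars stack to the family sum and are means of 2 libraries, with error bars of 1 SD. Dlg4 holds 58.7%, 61.4% and 45.8% of its family by these measures, while the Dlgap shares differ little between them.

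The Dlg family summed to 707 and 732 TPM and the Dlgap family to 508 and 555 TPM. Scaffold RNA of the Dlg family therefore exceeded that of the Dlgap family 1.39-fold in replicate 1 and 1.32-fold in replicate 2. By the FASTQ-based table this ratio was 1.63 and 1.62. The difference between the quantifications in this ratio was larger than that between the animals.

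The balance of the family was nearly the same in both animals. Read counts scaled to library size (CPM, with edgeR's TMM factors) were compared as the ratio of replicate 2 over replicate 1, with exact 95% intervals that cover counting error only. A gene was called different past a log2 ratio of 0.32 in either direction at a mean of at least 5 CPM, a rule of size with no test. Of the members 0 of 8 were called, where 6.17% of 11095 nuclear protein-coding genes were. The median absolute log2 ratio was 0.04 over the members and 0.09 over all those genes. The members had 132 to 796 CPM, while the genes compared reach down to 5 CPM, where counting error is wider. Genes were not matched for level, so these values are not read as a trait of the members. Dlg4, with 24516 and 21571 expected counts, had 796 and 786 CPM and a ratio of 0.988 (0.970 to 1.01).

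Dlg3, the X-linked SAP102 gene, differed most between the animals. It had 6460 and 5173 expected counts, which gave 209.8 and 189 CPM and a ratio of 0.899 (0.867 to 0.933), and 71.7% of the genes compared had a smaller difference. Dlgap1 had 486 and 515 CPM, a ratio of 1.06 (1.04 to 1.08), and Dlgap2 had 132 and 139.96 CPM, a ratio of 1.06 (1.01 to 1.11). Dlg1 had 200.4 and 193 CPM and a ratio of 0.961 (0.926 to 0.997). These 4 genes had intervals that leave out equality, on counting error alone. Their directions held with DESeq2 size factors, total expected counts and the FASTQ-based counts. With total expected counts, however, the Dlg1 interval (0.950 to 1.02) included equality. By TPM, Dlg1 was higher in replicate 2 in both quantifications, and Dlg3 in the FASTQ-based one (102.98 and 103.8 TPM). The directions of Dlg1 and Dlg3 thus hold for scaled counts and not for every TPM.

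The other members had intervals that include equality with TMM factors. That of Dlg2 left it out with total expected counts (1.001 to 1.05) and that of Dlg4 with DESeq2 size factors (0.964 to 0.9996). Dlg2 had a ratio of 0.998 (0.976 to 1.02), Dlgap3 of 0.987 (0.962 to 1.01) and Dlgap4 of 1.01 (0.974 to 1.04). No direction is given for Dlg2, Dlg4, Dlgap3 or Dlgap4, because scaling by total expected counts turned Dlg2, Dlg4 and Dlgap3 to log2 ratios of 0.03, 0.02 and 0.02, and the FASTQ-based counts turned Dlgap4 to -0.02 (DESeq2 size factors to -0.00067). Alignment-based TPM was higher in replicate 2 for 7 of the 8 genes, all but Dlg3, and FASTQ-based TPM for all 8. The share of all genes with a higher TPM in replicate 2 is not given here, so these counts are not read as a trait of the members. The scales differ in that TPM is set against the length-weighted total of the library and CPM against the scaled total of counts.

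**Figure D3:**
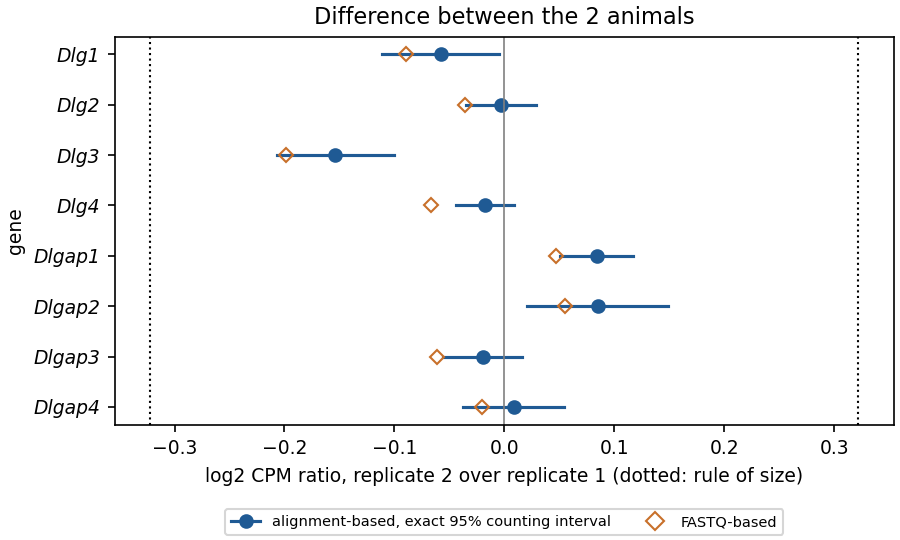
Log2 ratio of CPM in replicate 2 over replicate 1 for the 8 genes. Filled points and lines are the alignment-based ratios with exact 95% counting intervals, open diamonds the FASTQ-based ratios, and dotted lines mark a log2 difference of 0.32 in either direction. All 8 lie within those lines, with Dlg3 farthest from equality at a ratio of 0.899.

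The tissue label was checked against marker genes, and some markers differed between the animals. All 7 excitatory neuron markers were detected, with summed levels of 951 and 1034 TPM. Past a log2 ratio of 0.32, 1 of these 7 was higher in replicate 2 and 0 in replicate 1. Inhibitory neuron markers summed to 544 and 485 TPM, with 2 of 7 higher in replicate 1 past that size and 0 in replicate 2. Of 5 genes listed for the cerebellum 2 passed a TPM of 1, Neurod1 (7.96 and 7.59 TPM) and Car8 (4.12 and 4.07 TPM). The granule cell gene Gabra6 had 1 and 0 counts. Striatal markers summed to 563 TPM in replicate 1 and 380 TPM in replicate 2, with 9 of 9 higher in replicate 1 past a log2 ratio of 0.32 (3.33% of all genes were). Immediate early genes summed to 419 and 254 TPM, with 9 of 10 higher in replicate 1 past that size. The choroid plexus gene Ttr had 96.0 and 4.79 TPM. Myelin genes of oligodendrocytes summed to 1508 and 2375 TPM, with 8 of 8 higher in replicate 2 past that size (2.84% of all genes were). Beside these differences the Dlgap3 ratio was 0.987 and the Dlg4 ratio 0.988. The part of tissue composition in the Dlg3, Dlgap1, Dlgap2 and Dlg1 ratios was not tested, and in bulk tissue fewer cells of a type and less RNA per cell cannot be told apart.

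The FASTQ-based table gave higher TPM than the alignment-based table for most genes, and the members followed that shift. The median nuclear protein-coding gene was 1.55-fold higher in replicate 1 and 1.52-fold higher in replicate 2. Past 1.5-fold in both libraries were 5 of 8 members, namely Dlg1 to Dlg4 and Dlgap4, against a background of 45.3% of 12864 genes. Relative to the median gene, 0 of 8 members passed 1.5-fold (background 3.69%) and 0 of 8 passed 0.32 on the log2 scale (background 12.8%). Dlg4 came nearest, at 1.13-fold in replicate 1 and 1.20-fold in replicate 2 above the median shift. Dlgap1 was at 0.909 and 0.886 of it and Dlgap3 at 0.909 and 0.896. The quantifications use the same reads and are no replicates of each other.

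Each gene had the same leading transcript in both libraries and both quantifications. The leader differed between quantifications for 0 of 8 members, where it did for 34.3% of 11686 genes with several transcripts. It differed between libraries for 0 of 8 members in either table, where it did for 12% of genes in the alignment-based and 17.3% in the FASTQ-based table. The leader held at least 50% of the gene's TPM in both libraries for 5 of 8 members in the alignment-based table (63% of genes) and for 3 of 8 in the FASTQ-based table (55.7% of genes). The members hold 109 annotated transcripts, 63 of them protein coding.

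Dlg4-203, the transcript of 724 codons with the cysteine start, led at 55.6% and 57.5% of Dlg4 TPM in the alignment-based table (56.5% ± 1.28, SD, n = 2). The FASTQ-based table gave it 35.0% and 28.9% (32.0% ± 4.28). The shorter Dlg4-201, with 664 codons, had 20.1% ± 0.21 and 19.6% ± 4.13 in the tables. Dlg4-218, which has the same number of codons and another 5′ end, had 2.32% ± 0.64 in the alignment-based and 15.2% ± 1.91 in the FASTQ-based table. Dlg4 was the member whose transcript profile differed most between the quantifications, with 62.7% of the profile shared (the sum over transcripts of the smaller mean share).

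Dlg2-204, of 852 codons and with the other cysteine pair, led Dlg2 at 65.5% and 61.7% (63.6% ± 2.64, SD, n = 2) and at 49.1% ± 3.56 in the FASTQ-based table. No other Dlg2 transcript passed 10% in both libraries of either table. Dlg3-202, of 849 codons, held 42.5% ± 0.18 and 41.4% ± 2.96. Behind it Dlg3-204 had 24.3% and 31.4% in the 2 libraries and Dlg3-201 had 24.0% and 17.3%. In the FASTQ-based table Dlg3-204 had 18.7% and 20.7% and Dlg3-201 had 23.6% and 16.05%, so their order was not the same in both libraries there. Dlg3-205, a processed transcript of 559 bases, had 1.02% ± 0.26 in the alignment-based and 15.1% ± 6.68 in the FASTQ-based table.

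Dlg1 was the most divided of the Dlg genes. Its leader Dlg1-204, of 834 codons, held 28.5% and 26.9% (27.7% ± 1.13, SD, n = 2) and 30.6% ± 1.3 in the FASTQ-based table. Dlg1-203, of 905 codons, followed with 14.4% ± 1.01 and 12.9% ± 2.40. Dlg1-209, annotated as a target of nonsense-mediated decay, had 11.6% ± 0.15 and 9.81% ± 0.68. In the alignment-based table, to reach 90% of Dlg1 TPM took 9 transcripts in replicate 1 and 10 in replicate 2, while Dlgap3 needed 2 in each.

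Dlgap3 was the most concentrated GKAP gene in the alignment-based table. Dlgap3-201, of 977 codons, held 79.7% and 80.8% (80.3% ± 0.79, SD, n = 2), and 59.3% ± 8.40 in the FASTQ-based table. Dlgap3-203 has the same coding length and another 5′ end, and held 11.9% ± 0.40 and 27.3% ± 7.61. Dlgap3-202, of 966 codons, held 4.77% ± 0.12 and 13.4% ± 0.79. Dlgap4-205, of 989 codons, held 63.9% ± 1.03 and 53.6% ± 1.46 of Dlgap4. The shorter Dlgap4-203 (453 codons) held 15.9% ± 0.94 and 12.5% ± 1.72, and Dlgap4-201 (244 codons) 11.1% ± 0.58 and 9.60% ± 0.70.

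Dlgap1 was divided among short forms. Dlgap1-211, of 682 codons, led with 33.2% and 33.5% (33.3% ± 0.22, SD, n = 2) and 26.3% ± 3.40 in the FASTQ-based table. Dlgap1-209 (692 codons) held 15.4% ± 2.32 and 8.99% ± 1.75, and Dlgap1-206 (666 codons) 9.87% ± 1.63 and 14.8% ± 1.64. Dlgap1-207, of 982 codons, held 9.61% ± 1.14 and 13.9% ± 2.89. Dlgap2-203, of 1059 codons, led Dlgap2 with 63.4% ± 0.78 and 59.3% ± 5.63. Dlgap2-207, an intron-retaining transcript, had 12.02% ± 1.08 and 15.1% ± 2.65. Dlgap2-208 was listed at 0 in both libraries of the alignment-based table and held 12.1% ± 0.85 in the FASTQ-based table.

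**Figure D4:**
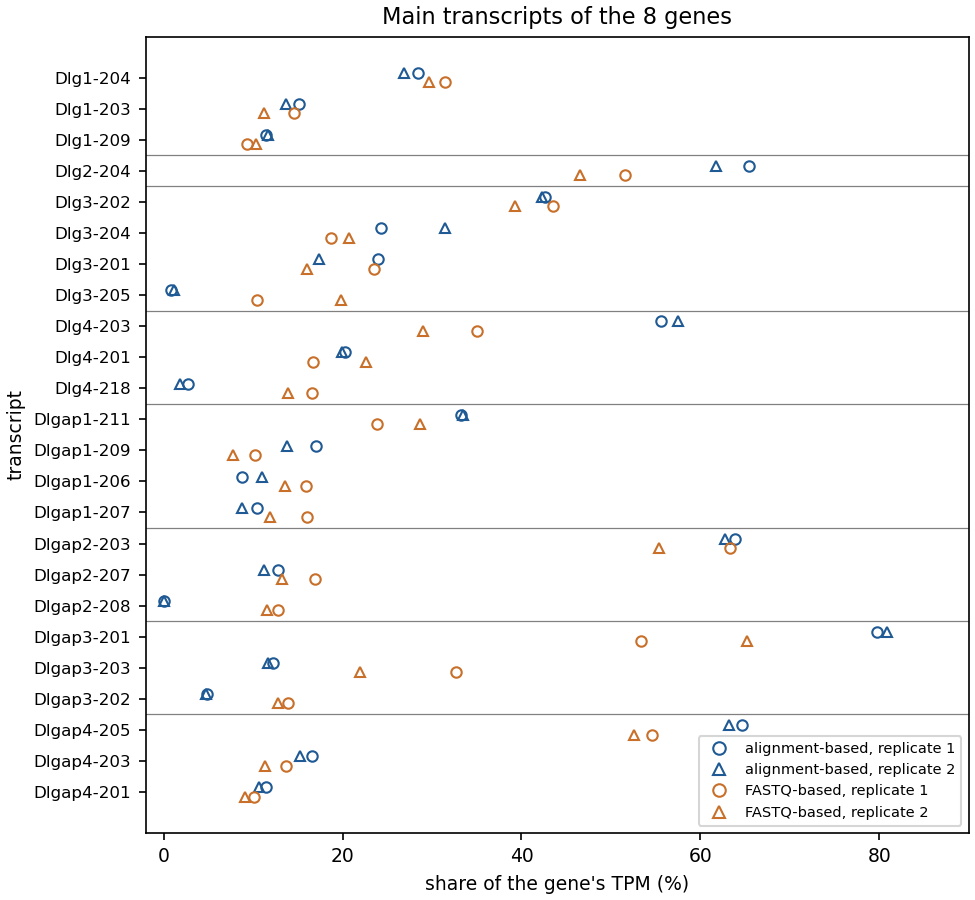
Share of each gene's TPM in its main transcripts, in percent, with circles for replicate 1, triangles for replicate 2, blue for the alignment-based and orange for the FASTQ-based table. The top transcript of each gene is the same in all 4 measurements, while Dlg4-203 lies at 55.6% and 57.5% in blue and at 35.0% and 28.9% in orange.

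Summing transcripts by start codon set the cysteine start of Dlg4 against its other starts. The start at chr11 position 70018920 held 64.7% and 67.2% of Dlg4 TPM in the alignment-based table (66.0% ± 1.74, SD, n = 2). The start at 70030625, whose complete transcripts have 664 codons without the cysteine pair, held 30.1% and 28.0% (29.1% ± 1.54). In the FASTQ-based table these places were exchanged, with 38.1% and 32.8% at the cysteine start (35.4% ± 3.75) and 41.9% and 40.7% at the 664-codon start (41.3% ± 0.83). Which Dlg4 start leads therefore depends on the quantification. The sum at 70030625 includes Dlg4-213, an incomplete coding model with 5.48% and 3.32% in the FASTQ-based table. In replicate 1 its share is larger than the gap between these starts, so the exchange there rests on that model. The start at 70017215, which opens the L27-containing form, held 0.22% ± 0.02 and 1.23% ± 1.09. In the alignment-based table that share was all in Dlg4-205, annotated as a target of nonsense-mediated decay, and the coding models Dlg4-204 and Dlg4-217 were listed at 0. Dlg4-206, an incomplete coding model from a start at 70024070, had 0.41% ± 0.15 and 12.8% ± 8.30.

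Unlike in Dlg4, the start of the L27-containing form led in Dlg1. The start at chr16 position 31664852, shared by 6 transcripts of which the complete ones have 872 to 927 codons, held 56.0% ± 0.47 of Dlg1 TPM and 51.1% ± 2.14 in the FASTQ-based table (Dlg1-209 included). This start opens the L27-containing form of SAP97. The downstream start at 31754783, of Dlg1-204 alone, held 27.7% ± 1.13 and 30.6% ± 1.3. In Dlg2 the cysteine start at chr7 position 91091007 held 65.1% ± 2.67 and 55.3% ± 2.37, and the far upstream start of the 957-codon Dlg2-217 held 4.89% ± 0.72 and 5.23% ± 0.59. In Dlg3 the start at 100768072 held 91.0% ± 0.14 and 80.9% ± 6.88.

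The GKAP genes also differed in how far the long forms prevailed. In Dlgap1 the start at chr17 position 70522188, giving 666 to 692 codons, held 58.6% ± 0.48 (SD, n = 2) and 50.1% ± 0.02. The start of the long form at 70516022, giving 944 to 992 codons, held 18.6% ± 0.01 and 30.04% ± 0.60. The short form thus led in all 4 measurements. In Dlgap3 all complete coding transcripts share the start at chr4 position 127194613, with 96.9% ± 0.27 and 100% of the TPM. In Dlgap4 the start at chr2 position 156700679, giving 975 to 992 codons, held 63.9% ± 1.03 and 62.6% ± 2.09. In Dlgap2 the start at chr8 position 14179667, giving 1045 to 1059 codons, held 63.4% ± 0.78 and 71.5% ± 6.48. Its other start, at 14096124 with 1060 codons, held 8.15% ± 1.95 and 2.24% ± 3.16. The remaining 28.5% ± 1.18 and 26.3% ± 3.32 of Dlgap2 lay in transcripts with no start codon annotated, so no short coding form is counted there.

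Alternative coding segments were measured as the share of TPM that includes a segment, among complete coding transcripts that span it. The 8 genes hold 22 such segments of at most 110 bases, 15 of them multiples of 3 bases. The libraries differed by at most 7.36 percentage points for any segment in the alignment-based table and 6.37 in the FASTQ-based table, and the quantifications by at most 16.5. In all 4 measurements 20 of the 22 stayed on the same side of 50%, the exceptions being a 21-base segment of Dlg1 and a 42-base segment of Dlg3.

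A pair of alternative exons between the SH3 and guanylate kinase parts occurs in Dlg1, Dlg2 and Dlg3, and is shown because all 3 paralogs used the same side of the choice. The longer exon has 100 bases in each. Capitals mark bases that are the same at the same distance from the exon's start in all 3, 45 of 100.
Dlg1, chr16:31846834-31846933: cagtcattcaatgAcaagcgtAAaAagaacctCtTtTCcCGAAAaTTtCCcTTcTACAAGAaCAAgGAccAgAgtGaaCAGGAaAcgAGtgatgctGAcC
Dlg2, chr7:92417224-92417323: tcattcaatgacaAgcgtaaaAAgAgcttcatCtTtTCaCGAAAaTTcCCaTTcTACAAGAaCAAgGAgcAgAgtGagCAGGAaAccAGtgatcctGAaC
Dlg3, chrX:100808053-100808152: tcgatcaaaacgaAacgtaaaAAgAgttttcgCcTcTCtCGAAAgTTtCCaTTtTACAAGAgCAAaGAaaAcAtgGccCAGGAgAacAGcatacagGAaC
With gaps allowed, Dlg1 and Dlg2 matched at 84.5% of aligned columns, Dlg2 and Dlg3 at 66% and Dlg1 and Dlg3 at 61.5%. The shorter exon has 34 bases in Dlg1 and 46 in Dlg2 and Dlg3, with capitals for the 36 of 46 bases shared by the latter pair.
Dlg1, chr16:31847636-31847669: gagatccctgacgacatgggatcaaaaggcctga
Dlg2, chr7:92418088-92418133: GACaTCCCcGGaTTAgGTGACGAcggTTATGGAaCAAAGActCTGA
Dlg3, chrX:100809862-100809907: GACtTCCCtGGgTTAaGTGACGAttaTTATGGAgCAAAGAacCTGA
All of these lengths leave a remainder of 1 on division by 3, so exchanging the exons keeps the reading frame.

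Among complete coding transcripts the shorter exon prevailed in each paralog. In Dlg1 it was included in 89.6% and 87.1% of spanning TPM (88.4% ± 1.72, SD, n = 2) and in 86.1% ± 2.93 in the FASTQ-based table. In Dlg2 it was included in 97.9% ± 0.01 and 89.4% ± 2.09, and in Dlg3 in 98.7% ± 1.23 and 99.8% ± 0.34. The longer exon made up the rest: 11.6% ± 1.72 and 13.9% ± 2.93 in Dlg1, 2.09% ± 0.01 and 10.6% ± 2.09 in Dlg2, and 1.27% ± 1.23 and 0.24% ± 0.34 in Dlg3. Dlg1 was above both paralogs in the alignment-based table with no overlap of the libraries, but in the FASTQ-based table its libraries (11.8% and 15.9%) overlapped those of Dlg2 (9.14% and 12.1%). The longer-exon value rests on Dlg1-202 alone in Dlg1 and on Dlg3-203 alone in Dlg3. Models without a complete coding sequence are left out. Among them is Dlg3-205, which starts at chrX position 100808000, upstream of the longer exon, and held 15.1% ± 6.68 of FASTQ-based Dlg3 TPM.

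A cassette of 42 bases just downstream separated Dlg3 from Dlg2. Its sequences share 26 of 42 bases, shown in capitals.
Dlg2, chr7:92420632-92420673: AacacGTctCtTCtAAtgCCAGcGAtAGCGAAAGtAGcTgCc
Dlg3, chrX:100811502-100811543: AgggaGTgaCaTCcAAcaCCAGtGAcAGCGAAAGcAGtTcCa
Dlg3 included it in 48% and 46.7% of spanning TPM (47.3% ± 0.92, SD, n = 2) and in 51.3% ± 0.52 in the FASTQ-based table. Dlg2 listed it at 0 in both libraries of the alignment-based table and at 0.80% ± 0.15 in the FASTQ-based table. The Dlg2 value rests on Dlg2-202 alone, the only complete model that carries it. In Dlg1 segments of 15 and 21 bases lie next to each other in the same stretch of the gene, and were included in 38.4% ± 0.64 and 43.7% ± 0.42 of spanning TPM, and in 42.6% ± 0.67 and 49.97% ± 0.35 in the FASTQ-based table.

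Near the 5′ end, an exon of 54 bases is a cassette in Dlg2 and Dlg3, and is present in Dlg4 at the matching length. Capitals mark the 24 bases shared by all 3.
Dlg2, chr7:91733091-91733144: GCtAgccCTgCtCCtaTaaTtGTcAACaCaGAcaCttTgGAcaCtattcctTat
Dlg3, chrX:100771307-100771360: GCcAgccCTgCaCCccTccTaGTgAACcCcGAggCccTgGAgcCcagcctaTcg
Dlg4, chr11:70030399-70030452: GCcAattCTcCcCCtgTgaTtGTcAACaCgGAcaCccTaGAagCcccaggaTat
Dlg3 included its exon in 73.6% and 81.0% of spanning TPM (77.3% ± 5.21, SD, n = 2) and in 75.7% ± 4.51 in the FASTQ-based table. Dlg2 included its own in 98.9% ± 0.13 and 96.0% ± 0.45. Dlg1 has a longer cassette of 99 bases, included in 87.3% ± 1.49 and 86.3% ± 1.68. In Dlg4 a segment of 66 bases was included in 95.01% ± 0.45 and 98.8% ± 0.94, and a segment of 9 bases in 93.7% ± 0.60 and 89.5% ± 0.55.

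**Figure D5:**
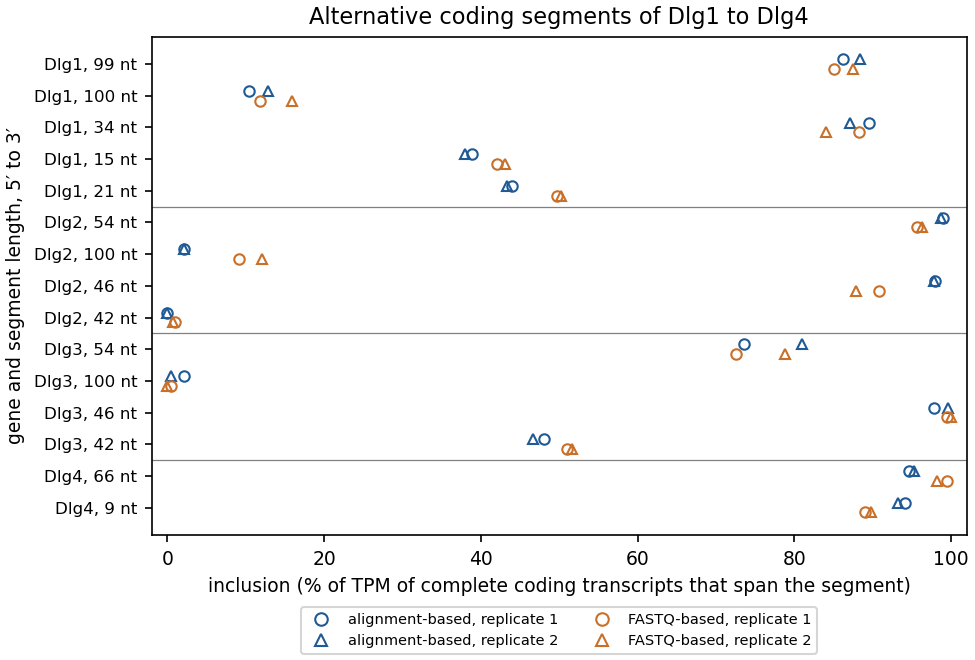
Inclusion of alternative coding segments of Dlg1 to Dlg4, in percent of the TPM of complete coding transcripts that span each, ordered 5′ to 3′ within a gene. Circles are replicate 1, triangles replicate 2, blue the alignment-based and orange the FASTQ-based table. The 100-base exon lies at the low end and its 34- or 46-base partner at the high end in Dlg1, Dlg2 and Dlg3, and the 42-base cassette lies near 47.3% in Dlg3 and at 0 in Dlg2 (alignment-based).

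Of the GKAP segments, a 30-base segment of Dlgap1 was the most evenly used, and is printed for that reason.
Dlgap1, chr17:70718196-70718225: gtgtcataaaactgagttctgccgttgaag
It was included in 38.7% and 42.03% of spanning TPM (40.4% ± 2.32, SD, n = 2) and in 45.4% ± 0.86 in the FASTQ-based table. An 84-base segment of Dlgap1 was included in 80.3% ± 0.95 and 80.8% ± 0.98. A 33-base segment of Dlgap3 was included in 95.1% ± 0.14 and 86.6% ± 0.79, and a 42-base segment of Dlgap2 in 100% and 83.5% ± 0.41. In Dlgap4 a 63-base segment was included in 80.1% ± 0.68 and 83.3% ± 1.64, an 89-base segment in 17.5% ± 0.54 and 14.8% ± 1.41, and a 51-base segment in 100% of both tables.

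By annotation class, the members differed in how much of their TPM lay in coding transcripts, and for some genes the value changed with the table. In the alignment-based table transcripts annotated as protein coding held 98.0% ± 0.77 (SD, n = 2) of the TPM of Dlg4, 96.9% ± 0.27 of Dlgap3, 94.2% ± 1.09 of Dlgap4 and 92.2% ± 1.01 of Dlg3. They held 84.8% ± 2.08 of Dlgap1, 73.2% ± 0.21 of Dlg1, 71.5% ± 1.18 of Dlgap2 and 70.8% ± 1.88 of Dlg2. In the FASTQ-based table they held 100% of Dlgap3, 94.1% ± 1.10 of Dlgap4, 90.3% ± 2.78 of Dlg4, 88.2% ± 1.70 of Dlgap1 and 81.1% ± 7.16 of Dlg3. The lowest there were Dlg1 with 75.3% ± 3.11, Dlgap2 with 73.7% ± 3.32 and Dlg2 with 63.5% ± 2.25. The median over the members was 88.5% and over all detected genes 88.0%, and the FASTQ-based values were 84.7% and 85.9%. The class held by the rest differed by gene. Retained introns took 15.1% ± 1.86 of Dlgap1, 12.4% ± 0.11 of Dlg1 and 12.02% ± 1.08 of Dlgap2, where the median gene had 3.21%. Dlg2 had 19.5% ± 3.52 in processed transcripts and Dlgap2 16.5% ± 0.10, against 31.7% ± 1.60 and 11.2% ± 5.97 in the FASTQ-based table, where Dlg3 had 15.1% ± 6.68 and Dlg4 9.21% ± 2.63. Transcripts marked for nonsense-mediated decay took 12.6% ± 0.83 of Dlg1 and 0.22% ± 0.02 of Dlg4, and the annotation holds none for the other 6 genes.

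Nearly all listed partners of these scaffolds were detected. The count was 76 of 77 partner genes in 8 lists, against 12933 of 22015 nuclear protein-coding genes. The lists were chosen with earlier results of these data known, so the count is not read as a result. Camk2a, the postsynaptic kinase subunit, at 1120.1 TPM was the only partner above Dlg4. Downstream of GKAP, the dynein light chain gene Dynll1 had 302 TPM and the scaffold gene Shank1 278 TPM. Among receptors, the NMDA receptor subunit genes Grin1 and Grin2b had 212 and 148 TPM. Among adhesion genes Lrrc4b had 125 TPM and Nlgn2 had 109 TPM, and among signalling enzymes Kalrn had 260.5 TPM after Camk2a.

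Of the other scaffold genes Anks1b had 223 TPM and Sipa1l1 116 TPM. For palmitate turnover, Abhd17a, whose product removes palmitate from PSD-95, had 90.3 TPM and the palmitoyltransferase gene Zdhhc8 69.9 TPM. The RNA-binding genes Rbfox1 and Rbfox3, which encode splicing factors of neurons, had 151 and 149 TPM. The distant relative Dlg5 had 15.6 TPM, and Dlgap5, which encodes a mitotic spindle protein, was the undetected partner with 0.08 and 0.21 TPM. Between the animals 75 partners could be compared: 0 were higher in replicate 2 past a log2 ratio of 0.32 (background 2.84%) and 1, the potassium channel gene Kcnj2 with a ratio of 0.746, was higher in replicate 1 (background 3.33%).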

How the data were processed

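Total RNA-seq of 2 cortex libraries was used as deposited. Per the file headers and the description deposited with the files, the authors quantified each library on mm10 with GENCODE M21, once from alignments to the transcriptome and once directly from the reads. Which aligner and quantifiers were run is not given in the sources used here. Expected counts and TPM per gene and per transcript were deposited in the alignment-based tables, with each transcript's percent of its gene. The deposited FASTQ-based table lists, for each transcript, an estimated count and a TPM, and these were added up by gene. Both divide reads that match several transcripts by a model, so transcript shares are estimates, and the deposited TPM bounds were not used because some leading transcripts lie outside them (Dlg2-204 with 92.87 TPM against bounds of 87.4 and 91.7 in replicate 1). Percents were recomputed from TPM and differed from the deposited percents by at most 0.0114 points. Expected counts over annotated genes summed to 31191535 and 27079700. All 8 members had whole expected counts (within 0.01) in both libraries. The same held for 85.1% of the detected nuclear protein-coding genes, so whole counts do not set the members apart.

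Expected counts were rounded for edgeR 4.0.16 (R 4.3.3), whose TMM factors were 0.987 and 1.01, and DESeq2 1.42.0 gave size factors as an alternative scaling only. The scaling was tested on counts simulated for these libraries, where a depth ratio of 0.8 was recovered as 0.803 by TMM. Over 11091 genes the rule of size, applied in the upward direction only, called 200 of 200 genes raised 2-fold and 25 unchanged ones. Unchanged genes past the rule downward were not counted. The simulated counts held counting error only, with no variation between animals, so the 25 is no error rate for these libraries. Genes were compared between animals at a mean of at least 5 CPM. List medians use log2(TPM + 1). Intervals and ratios cover counting error only. Start codons, coding segments and sequences came from the GENCODE M21 annotation and transcripts (mm10). Segment inclusion uses complete coding transcripts only. Reads of the CAST allele can match the C57BL/6J reference less well, and this was not tested. Protein sequences were not used here. Python 3.11.15, pandas 2.3.3 and matplotlib 3.10.9 did the remaining work.

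Named are all 8 members, transcripts that lead in either quantification or hold at least 10% of the gene's TPM in both libraries of either quantification, the 2 highest genes of each partner list and partners under 1 TPM. Other transcripts, Camk2a's comparison with Dlg4, Kcnj2, Gabra6 and Ttr were singled out after their values were seen. No gene was named for a like pattern, since 2 libraries of 1 group give none. The members and lists were chosen with earlier results of these data known. Exons of Dlg2 overlap the same-strand non-coding genes Gm45159 (1104 and 1089 counts) and Gm45131 (27 and 48 counts), all with whole expected counts. Exons of Dlgap1 and Dlgap4 overlap opposite-strand genes with at most 1 count.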

Additional observations from a re-analysis of the deposited data

How the results depend on the processing

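No paired analysis was possible because the 2 libraries form 1 group. The Dlg4 share of its family was 61.4% by FASTQ-based TPM, 45.8% by expected counts without length correction and 64.6% over protein-coding transcripts, and 58.4% to 58.9% with either library left out. The Dlgap1 share was 35.6% by FASTQ-based TPM and 34.9% over protein-coding transcripts, and 36.1% to 37.5% with either library left out. The count of members past the fold between quantifications was 0 by counts without length correction and 8 past a log2 ratio of 0.32, and 5 to 6 with either library left out. It was 0 at 1.5-fold and 0 at a log2 ratio of 0.32 after centring on the median gene, an alternative chosen after seeing the data. The median share in protein-coding transcripts was 84.7% by FASTQ-based TPM, 93.8% by counts without length correction, and 87.4% to 89.6% with either library left out. The count of members with differing leaders stayed at 0 over coding transcripts only and by counts. With either library left out it was also 0, which a count of 0 over both libraries fixes in advance. No member passed the log2 ratio of 0.32 between animals under any scaling tried. The share of all genes past that fold was 25.8% without the filter on low counts and 1.22% at 1.5-fold. In all, 20 of the main values under alternatives moved by less than the spread between libraries or, for counts, by less than 1.5 times, and 11 moved further. Some of the 20 could not have moved further, since leaving out 1 of 2 libraries moves a mean by less than their SD. The causes were not tested. The Dlg4 start that opens the L27 form, Dlg2-202 and Dlg3-203 rest on shares near 0, and whether depth limits them was not tested.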

Other observations

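Dlg2-213, an intron-retaining transcript of 448 bases singled out after its value was seen, was listed at 0 in replicate 1 and held 7.50% of Dlg2 TPM in replicate 2 of the alignment-based table, and was listed at 0 in both libraries of the FASTQ-based table. With it, retained introns of Dlg2 took 5.91% in replicate 1 and 13.5% in replicate 2. Dlg2-207, a processed transcript, held 12.4% and 9.21% in the alignment-based and 4.30% and 5.11% in the FASTQ-based table, and Dlg2-212, also processed, held 1.93% and 1.34% against 8.58% and 12.4%. The 12 Dlg2 transcripts with no start codon annotated summed to 29.2% ± 1.88 (SD, n = 2) and 36.5% ± 2.25 in the tables, while the transcripts that carried this share differed.

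The short Dlg4 models showed the same dependence on the table. Dlg4-209, a processed transcript, was listed at 0 in both libraries of the alignment-based table and held 10.9% and 5.54% in the FASTQ-based table, and Dlg4-206 held 0.52% and 0.30% against 6.95% and 18.7%.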
